A study of Mus musculus with 10 samples.

Results

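A group of 10 genes that detect double-stranded RNA, relay its detection or edit it was followed in mouse prostate cancer organoids, with members chosen by symbol from both deposited expression tables. All 10 were present in each table, among 24043 genes with values in the chemical table and 24016 in the genetic one. The organoids, 3-dimensional epithelial cultures, were grown from the dorsal-lateral prostate of C57BL/6 mice aged 8 weeks. Every culture, controls included, came from mice with MYC overexpression, floxed Ezh2 alleles and CreERT2, a Cre recombinase that is switched on by Tamoxifen, under a PSA promoter, and its medium held the synthetic androgen R1881 at 10 nM. The chemical experiment comprised 3 libraries of organoids given 1 µM DZNep and 3 of organoids given DMSO. The genetic experiment comprised 2 libraries of organoids given 1 µM Tamoxifen and 2 given ethanol (EtOH), and all agents were applied for 3 days. DZNep, used by the study to inhibit the histone methyltransferase EZH2, blocks S-adenosylhomocysteine hydrolase and so can act on other methyltransferases too. A PSA promoter limits Cre to cells in which it is active, and the labels do not say which share of cells that was. The origin of the replicates is not labelled either, so every p-value below reflects library-to-library spread that may be technical.

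Double-stranded RNA is scarce in healthy cytoplasm and is read by cells as a sign of viral infection or of transcripts from repeated elements. The RIG-I-like receptors are cytosolic helicases: RIG-I (DDX58) and MDA5 (IFIH1) bind such RNA and signal through MAVS on mitochondria, and LGP2 (DHX58), which lacks the signalling domains, modulates both. TLR3 samples double-stranded RNA in endosomes and signals through TICAM1 (TRIF). Either route ends in interferon regulatory factors and NF-kB, which induce interferons, and interferons in turn raise many of the sensors. PKR (EIF2AK2) halts translation by phosphorylating eIF2α, ZBP1 binds Z-form nucleic acids and can start necroptosis, TRIM25 is a ubiquitin ligase of the RIG-I pathway, and ADAR turns adenosine into inosine in double-stranded RNA, which keeps the cell's own RNA from being sensed.

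EZH2 itself measured 22.5, 24.2 and 24.7 RPKM (read density scaled by gene length and library size) in DZNep 1 to 3, against 30.4, 29.8 and 27.1 in DMSO 1 to 3 (log2 change -0.28, SE 0.0612, limma adjusted p = 0.0142). In the genetic experiment it measured 32.0 and 33.2 RPKM in the libraries labelled Tamoxifen, against 27.9 and 34.0 in EtOH (0.08, limma adjusted p = 0.635). The tables hold 1 value per gene and none per exon, so they do not check the deletion of the floxed part. Luminal and basal epithelial markers were abundant in every library. RPKM totals per library lay between 469455 and 512726, and absolute depth is not known from RPKM.

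Promoters of the group are shown first, and their part in the changes with DZNep was not tested. The RefSeq table of promoter windows (GRCm38.p6, 250 bases before to 50 after a start, 300 in all) held 10 windows for 8 of the 10 genes, with 3 for ADAR. DHX58 and ZBP1, which rose with DZNep, had no window and are named only. MAVS and TICAM1, whose changes with DZNep did not pass, are among the 8 with windows. The core of the interferon-stimulated response element, written GAAANNGAAA and searched on both strands, was found in 3 of the 8 genes, namely DDX58, IFIH1 and EIF2AK2, whereas 3.99% of the 27025 genes and 3.44% of the 32851 windows in the table held it. The capitals in these 3 windows mark that core, which in DDX58 lies on the strand opposite to the gene and reads as the reverse complement.
DDX58, GRCm38.p6, chr4:40239776-40240075, minus strand: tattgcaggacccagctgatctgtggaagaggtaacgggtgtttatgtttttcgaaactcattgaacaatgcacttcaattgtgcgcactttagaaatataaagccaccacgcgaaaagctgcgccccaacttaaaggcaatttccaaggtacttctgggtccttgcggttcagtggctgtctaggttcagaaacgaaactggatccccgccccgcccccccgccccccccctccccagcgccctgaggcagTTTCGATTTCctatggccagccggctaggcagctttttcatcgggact
IFIH1, GRCm38.p6, chr2:62646206-62646505, minus strand: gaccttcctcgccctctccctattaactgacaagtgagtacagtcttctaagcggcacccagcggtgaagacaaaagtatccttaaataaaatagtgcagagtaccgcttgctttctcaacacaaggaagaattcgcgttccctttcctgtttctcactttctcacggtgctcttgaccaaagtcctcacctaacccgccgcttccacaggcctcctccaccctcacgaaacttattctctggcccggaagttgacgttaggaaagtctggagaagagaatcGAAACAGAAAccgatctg
EIF2AK2, GRCm38.p6, chr17:78882523-78882822, minus strand: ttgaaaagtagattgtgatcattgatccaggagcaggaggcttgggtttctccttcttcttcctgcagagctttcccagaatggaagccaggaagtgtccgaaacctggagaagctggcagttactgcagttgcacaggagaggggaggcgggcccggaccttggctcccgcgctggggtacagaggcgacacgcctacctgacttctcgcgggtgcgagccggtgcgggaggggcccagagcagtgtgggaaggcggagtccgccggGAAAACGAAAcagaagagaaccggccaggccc

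In all 3 windows the core lay just after the annotated start, beginning 2 bases after it in DDX58, 32 in IFIH1 and 18 in EIF2AK2. A looser core bound by interferon regulatory factors, AANNGAAA, was searched after these sequences had been seen, and it also counts every match of the longer one. It was found in 6 of the 8 genes, DDX58, IFIH1, EIF2AK2, ADAR, TRIM25 and TLR3, and not in the windows of MAVS or TICAM1, while 26.7% of all genes in the table held it. Of the ADAR windows only window 3 held it. ADAR, TRIM25 and TLR3 rose without the longer core, and the windows of ADAR and TRIM25, the 2 with the larger rise, are shown with the looser core in capitals. In TRIM25 that core lies on the strand opposite to the gene and reads as the reverse complement.
ADAR window 3, GRCm38.p6, chr3:89730468-89730767, plus strand: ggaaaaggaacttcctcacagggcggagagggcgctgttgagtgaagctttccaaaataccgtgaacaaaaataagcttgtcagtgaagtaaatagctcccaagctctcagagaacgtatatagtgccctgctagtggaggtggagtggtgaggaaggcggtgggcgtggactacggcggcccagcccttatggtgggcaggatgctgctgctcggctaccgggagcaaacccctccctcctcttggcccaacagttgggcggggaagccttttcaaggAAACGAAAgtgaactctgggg
TRIM25, GRCm38.p6, chr11:88999153-88999452, plus strand: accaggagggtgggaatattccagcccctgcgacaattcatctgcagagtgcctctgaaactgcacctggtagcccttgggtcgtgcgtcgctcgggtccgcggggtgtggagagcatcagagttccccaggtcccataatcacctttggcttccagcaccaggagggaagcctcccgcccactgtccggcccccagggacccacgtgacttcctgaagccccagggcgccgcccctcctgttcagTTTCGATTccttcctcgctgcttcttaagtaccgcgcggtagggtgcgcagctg

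The match began 29 bases after the start in the third ADAR window and 4 bases before it in TRIM25. ADAR is known to have both an interferon-inducible and a constitutive form from separate starts, and a value for the whole gene cannot tell them apart. A match describes letters in a window and says nothing of binding, and the absence of a match says only that these letters are not in that window.

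**Figure D1:**
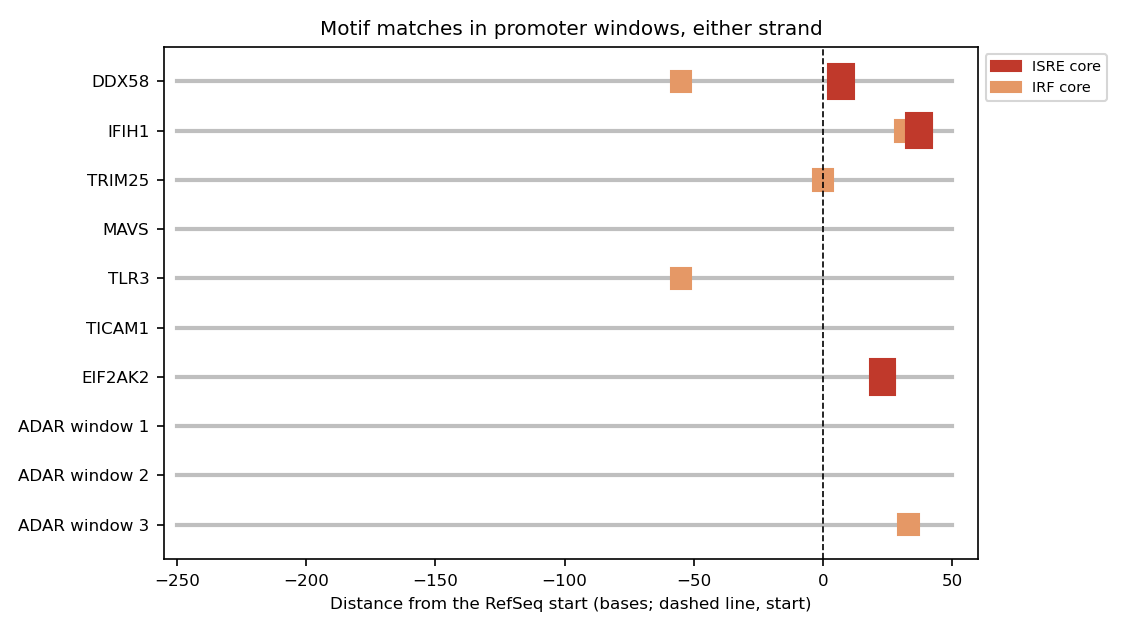
Motif matches in the RefSeq promoter windows of 8 of the genes, by distance in bases from the annotated start (dashed line), on either strand. Red marks GAAANNGAAA (ISRE core) and orange AANNGAAA (IRF core). The red core appears after the start in DDX58, IFIH1 and EIF2AK2, and the windows of MAVS and TICAM1 hold neither motif.

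The chemical experiment asks how DZNep changes the transcripts of this machinery. Of the 10 genes, 8 rose and 0 fell by limma over 11143 genes (adjusted p under 0.05), against a background of 27.7% of all genes tested that passed in either direction, 16.6% that rose and 11.1% that fell. At an unadjusted p under 0.05 there were 9, the added gene being MAVS, against 41.7% of all genes. The exceptions were the adaptors, MAVS and TICAM1. DHX58 and ZBP1 averaged under 1 RPKM in DMSO and passed the filter on low values only through the DZNep libraries, so that their test was conditional on a difference. Of the 8 genes with a DMSO mean of at least 1 RPKM, 6 rose. The median change of the 10 genes was 0.50 on the log2(RPKM + 1) scale, beside 0.01 for all genes tested. Changes are given on that scale throughout, which understates those of weakly expressed genes.

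Among the RIG-I-like receptors, DDX58 was the most abundant of the 10 genes in all 4 groups. It measured 27.5, 27.3 and 29.1 RPKM in DZNep 1 to 3, against 17.3, 17.8 and 18.5 RPKM in DMSO 1 to 3. Every DZNep library stood above every DMSO library, as was true of 26.1% of all genes tested. Its log2 change was 0.62 (SE 0.0490, 95% interval 0.50 to 0.73, limma adjusted p = 1.90e-04), a rise of 56.3% in mean RPKM. IFIH1, which senses long double-stranded RNA, lay far lower, at 4.56, 3.84 and 4.03 RPKM with DZNep and 1.56, 1.37 and 1.48 RPKM with DMSO. The groups did not overlap, and the mean with DZNep was 2.82 times that with DMSO. The log2 change was 1.06 (SE 0.0718, 0.89 to 1.22, limma adjusted p = 7.52e-05). DHX58 measured 4.14, 3.61 and 3.59 RPKM in DZNep, against 0.843, 0.890 and 0.878 RPKM in DMSO. The groups did not overlap, with every DMSO library below 1 RPKM. The log2 change was 1.35 (SE 0.0688, 1.19 to 1.51, limma adjusted p = 2.14e-05), the mean in RPKM being 4.34 times higher. As stated above, the test of DHX58 was conditional on a difference.

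The proportions between the receptors also differed between the groups. IFIH1 was present at 0.139 to 0.166 of the RPKM of DDX58 in DZNep libraries and at 0.0771 to 0.0897 in DMSO libraries, and DHX58 at 0.123 to 0.150 of it in DZNep and 0.0473 to 0.0501 in DMSO. These ratios are descriptions without a test. TRIM25 rose too, with 18.2, 18.1 and 16.4 RPKM in DZNep against 12.0, 12.6 and 13.1 RPKM in DMSO. All 3 treated libraries exceeded the controls, for a log2 change of 0.45 (SE 0.0578, 0.32 to 0.58, limma adjusted p = 0.00158).

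MAVS, on which RIG-I and MDA5 converge, was lower in each DZNep library without passing the test. It measured 14.6, 13.7 and 13.1 RPKM with DZNep, against 15.1, 15.8 and 15.4 RPKM with DMSO. Every DZNep library was below the controls, as for 19.4% of all genes tested, but the log2 change of -0.15 (SE 0.0525, -0.27 to -0.03) did not pass (limma adjusted p = 0.0703). It passed after quantile normalization (adjusted p = 0.0412), with trimmed mean scaling (0.0456), when all 10 libraries were fitted together (0.0358) and without DZNep 1 (0.0471). Within a library, the RPKM of DDX58 stood at 1.88 to 2.22 times that of MAVS in DZNep libraries and at 1.13 to 1.21 times that in DMSO libraries.

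In the endosomal route, the receptor TLR3 rose modestly. It measured 16.5, 17.0 and 18.1 RPKM with DZNep, against 13.2, 14.4 and 14.8 RPKM with DMSO, with no overlap between the groups. Its log2 change was 0.27 (SE 0.0586, 0.13 to 0.40, limma adjusted p = 0.0136), the smallest of the 8, and with no filter on low values it did not pass (adjusted p = 0.0636). Its adaptor TICAM1 measured 11.4, 11.3 and 10.1 RPKM in DZNep and 9.54, 10.7 and 10.3 RPKM in DMSO. Those groups overlapped, and the log2 change of 0.09 (SE 0.0631, -0.05 to 0.24) did not pass (limma adjusted p = 0.306).

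EIF2AK2 and ADAR, which both bind double-stranded RNA, were found at nearly equal levels and rose by similar amounts. EIF2AK2 measured 14.5, 13.8 and 14.9 RPKM in DZNep, against 9.49, 10.2 and 10.5 RPKM in DMSO. ADAR measured 15.5, 15.3 and 14.2 RPKM in DZNep, against 9.79, 10.3 and 10.2 RPKM in DMSO. Neither gene's groups overlapped. The log2 changes were 0.48 for EIF2AK2 (SE 0.0548, 0.35 to 0.61, limma adjusted p = 9.43e-04) and 0.53 for ADAR (SE 0.0507, 0.41 to 0.65, limma adjusted p = 4.50e-04). The ratio of EIF2AK2 to ADAR stayed between 0.904 and 1.05 in DZNep and between 0.968 and 1.04 in DMSO.

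ZBP1, the weakest of the 10 genes in every group, had the largest rise in proportion. It measured 2.86, 2.61 and 2.49 RPKM in DZNep, against 0.462, 0.343 and 0.467 RPKM in DMSO, a mean 6.26 times higher. The log2 change was 1.36 (SE 0.0763, 1.18 to 1.54, limma adjusted p = 2.93e-05), or 2.40 with a pseudocount of 0.1 in place of 1. ZBP1 and DHX58 passed the filter only through the DZNep libraries, so their tests and their ranks below were conditional on a difference. Both also passed limma with no filter. By size of rise, ZBP1 ranked 68 and DHX58 69 among the 11143 genes tested, IFIH1 100, DDX58 240 and TLR3 1233.

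**Figure D2:**
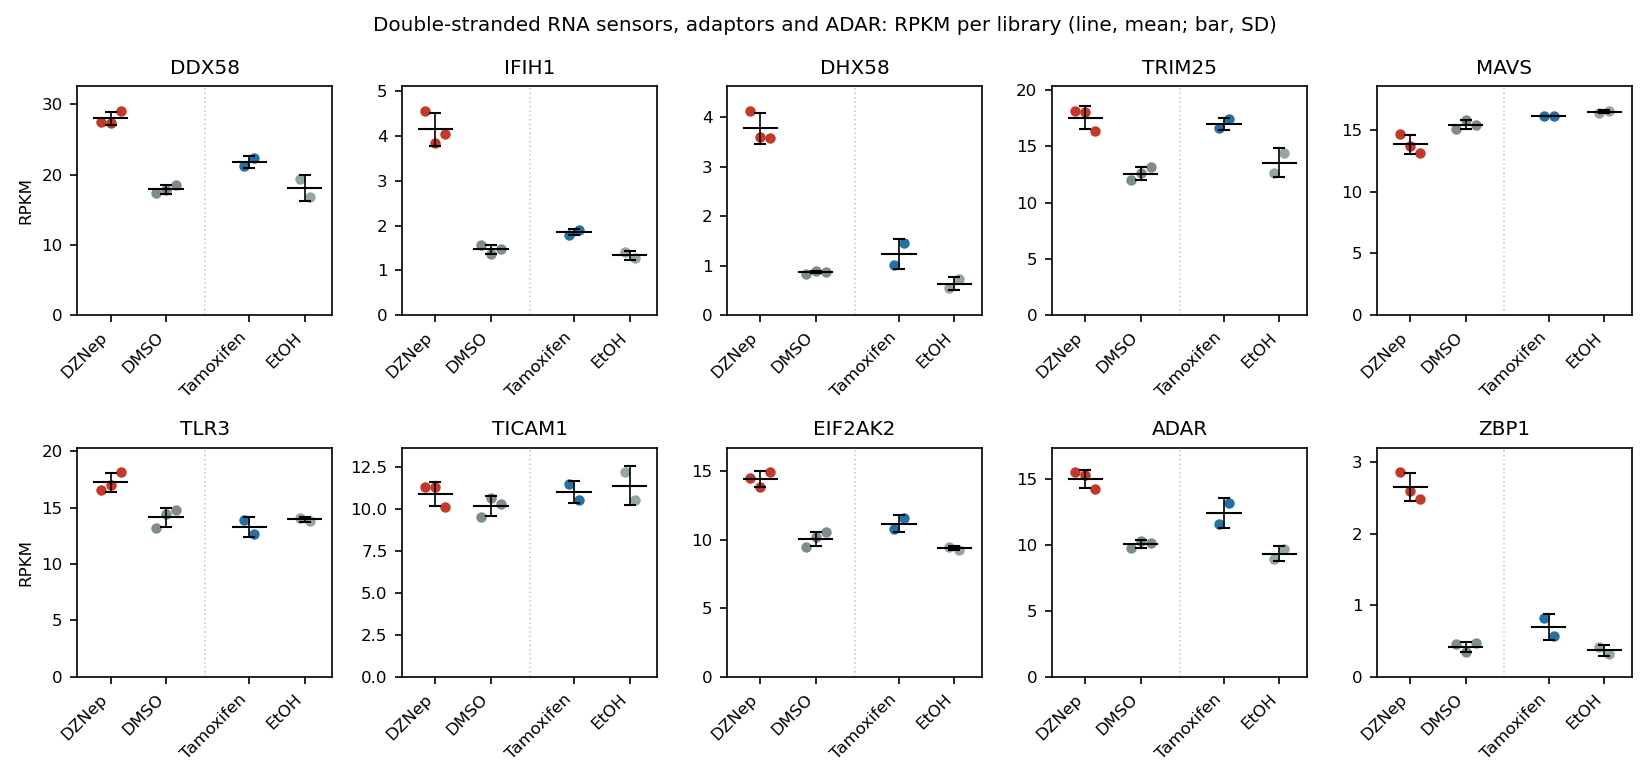
RPKM of each gene in every library (points), with group mean (line) and SD (bar), DZNep beside DMSO and Tamoxifen beside EtOH, each vertical axis starting at 0. For 8 genes every DZNep library lies above every DMSO library, MAVS lies below in DZNep, and TICAM1 overlaps.

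The order of the levels differed between DZNep and DMSO among the middle genes. In DZNep it ran DDX58, TRIM25, TLR3, ADAR, EIF2AK2, MAVS, TICAM1, IFIH1, DHX58 and ZBP1, with overlap between TRIM25 and TLR3, ADAR and EIF2AK2, EIF2AK2 and MAVS, and IFIH1 and DHX58. In DMSO it ran DDX58, MAVS, TLR3, TRIM25, then TICAM1, ADAR and EIF2AK2, whose neighbours overlapped, and then IFIH1, DHX58 and ZBP1. MAVS was thus sixth of the 10 in DZNep and second in DMSO. In Tamoxifen the order was DDX58, TRIM25, MAVS, then TLR3, ADAR, EIF2AK2 and TICAM1 with overlapping neighbours, and then IFIH1, DHX58 and ZBP1. In EtOH it was DDX58, MAVS, TLR3, TRIM25, TICAM1, EIF2AK2, ADAR, IFIH1, DHX58 and ZBP1, with overlap between TLR3 and TRIM25 and between EIF2AK2 and ADAR.

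Tamoxifen activates the recombinase, and with it none of the genes passed the test. Of the 10 genes, 8 passed the filter and 0 of these passed limma, where 2.07% of 11123 genes passed in either direction, 0.692% rose and 1.38% fell. At an unadjusted p under 0.05 there were 5, all higher in Tamoxifen, against 25.5% of all genes in either direction. In 7 of the 10 genes both Tamoxifen libraries stood above both EtOH libraries, as did 36.6% of all genes tested, MAVS stood below as did 23.2%, and TLR3 and TICAM1 overlapped. The median change of the 8 tested genes was 0.24, beside 0.04 for all genes. For DDX58 the coefficient of variation was 3.90% in Tamoxifen and 10.2% in EtOH.

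ADAR showed the largest change of the 8. It measured 11.6 and 13.2 RPKM in Tamoxifen, against 8.94 and 9.74 RPKM in EtOH, a log2 change of 0.38 (SE 0.0814, 95% interval 0.17 to 0.58, limma adjusted p = 0.0823). TRIM25 measured 16.6 and 17.4 RPKM in Tamoxifen, against 12.7 and 14.4 RPKM in EtOH, a log2 change of 0.31 (SE 0.0763, 0.12 to 0.50, limma adjusted p = 0.102). The ranges did not overlap for either gene and neither change passed. Both passed when all 10 libraries were fitted together (limma adjusted p = 0.0124 for ADAR and 0.0331 for TRIM25). In that fit 9.24% of all genes passed, in place of 2.07%. ADAR also passed with robust variances (limma adjusted p = 0.0437), where 5.81% of all genes did. TRIM25 passed without EtOH 2 as well, but that group is then a lone library, assumed to vary as the Tamoxifen pair does.

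Of the RIG-I-like receptors, DDX58 measured 21.1 and 22.4 RPKM in Tamoxifen, against 19.4 and 16.8 RPKM in EtOH (log2 change 0.26, SE 0.0817, limma adjusted p = 0.142). IFIH1 measured 1.80 and 1.90 RPKM in Tamoxifen, against 1.41 and 1.27 RPKM in EtOH (0.28, SE 0.0846, limma adjusted p = 0.132). DHX58 measured 1.02 and 1.46 RPKM in Tamoxifen, against 0.546 and 0.737 RPKM in EtOH. All 3 receptors were higher in both Tamoxifen libraries, and none passed. DHX58 lay below the filter, and its log2 change was 0.44 (adjusted p = 0.419 with the filter removed).

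EIF2AK2 measured 10.8 and 11.6 RPKM in Tamoxifen, against 9.49 and 9.27 RPKM in EtOH (log2 change 0.23, SE 0.0605, limma adjusted p = 0.110). ZBP1, also below the filter, measured 0.820 and 0.566 RPKM in Tamoxifen, against 0.421 and 0.318 RPKM in EtOH, for a log2 change of 0.30 (adjusted p = 0.449 with the filter removed). Both genes were higher in each Tamoxifen library without passing. TLR3 measured 13.9 and 12.6 RPKM in Tamoxifen and 14.1 and 13.8 RPKM in EtOH (-0.07, 95% interval -0.23 to 0.09, limma adjusted p = 0.503). MAVS measured 16.1 in both Tamoxifen libraries, against 16.4 and 16.5 RPKM in EtOH (-0.03, -0.16 to 0.10, limma adjusted p = 0.727). TICAM1 measured 11.5 and 10.6 RPKM in Tamoxifen and 12.2 and 10.6 RPKM in EtOH (-0.04, -0.25 to 0.17, limma adjusted p = 0.781). The intervals of these 3 genes, both adaptors among them, all included 0.

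**Figure D3:**
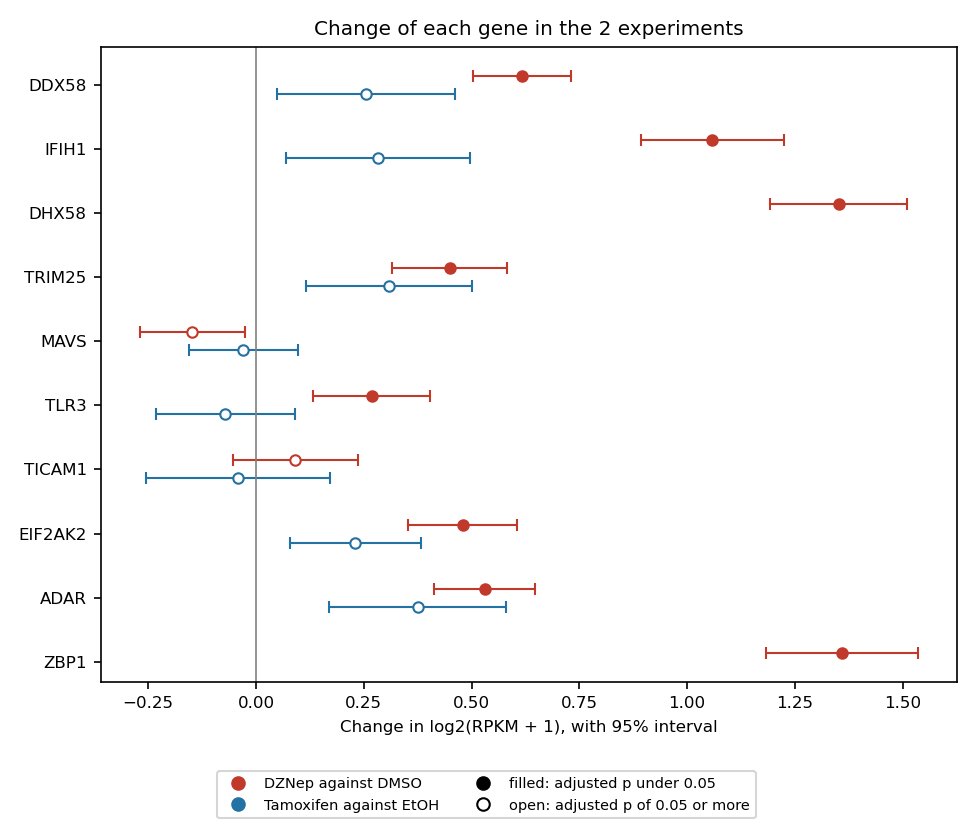
Change of each gene on the log2(RPKM + 1) scale with its 95% interval, DZNep against DMSO in red and Tamoxifen against EtOH in blue. Filled points passed limma over all genes: 8 do so with DZNep and none with Tamoxifen, where DHX58 and ZBP1 lay below the filter and have no point.

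Whether the effect of DZNep differed from that of Tamoxifen was tested in 1 limma fit over all 10 libraries. Of 8 genes tested, 3 had a larger change with DZNep and 0 a smaller one, where 10.7% of 10994 genes had a larger change, 9.2% a smaller one and 19.9% differed in either direction. At an unadjusted p under 0.05 there were 4, against 35.3% of all genes. IFIH1 differed by 0.77 (SE 0.106, 95% interval 0.54 to 1.01, limma adjusted p = 0.00129). DDX58 differed by 0.36 (SE 0.0921, 0.16 to 0.57, limma adjusted p = 0.0224). TLR3 differed by 0.34 (SE 0.0910, 0.14 to 0.54, limma adjusted p = 0.0274). Of these, IFIH1 kept its call whichever library was left out. DDX58 did not pass without DMSO 2 (adjusted p = 0.0529), EtOH 1 (0.0783), Tamoxifen 1 (0.0871) or Tamoxifen 2 (0.0545), and TLR3 without DZNep 2 (0.0515), DMSO 2 (0.0507), EtOH 1 (0.0802), EtOH 2 (0.0514) or Tamoxifen 2 (0.127).

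EIF2AK2 differed by 0.25 (SE 0.0842, 0.06 to 0.44) and did not pass (limma adjusted p = 0.0625). The other genes gave 0.16 for ADAR (-0.05 to 0.36), 0.14 for TRIM25 (-0.08 to 0.36), 0.13 for TICAM1 (-0.11 to 0.38) and -0.12 for MAVS (-0.28 to 0.05), with limma adjusted p between 0.264 and 0.415. With no filter on low values, DDX58 (adjusted p = 0.0701) and TLR3 (0.0767) did not pass, IFIH1 did, and DHX58 (difference 0.91, adjusted p = 0.0171) and ZBP1 (1.06, 0.00581) passed as well.

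Genes that act with the sensors were described by lists of pathway partners. Among interferon genes, which the sensors' pathways induce, IFNB1 reached at most 0.127 RPKM in DZNep and was listed at 0 in all DMSO, Tamoxifen and EtOH libraries, and IFNL2 was listed at 0 in all 10. IFNL3, IFNAB and IFNA13 were above 0 in DZNep alone, at no more than 0.0656, 0.0616 and 0.0466 RPKM. IFNA7 was above 0 in Tamoxifen alone, at no more than 0.0635 RPKM, and all these values lie near the floor. Of the 20 interferon ligands only IFNE, an interferon that epithelia express constitutively, passed the filter, with 0.708 ± 0.101 RPKM in DZNep and 2.12 ± 0.120 RPKM in DMSO (SD, n = 3 each; log2 change -0.87, limma adjusted p = 2.84e-04). Every DZNep library lay below 1 RPKM, so IFNE passed the filter only through the DMSO libraries and its test was conditional on a difference.

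Signalling genes downstream of MAVS and TICAM1 numbered 22 tested, of which 4 rose and 1 fell with DZNep, with a median of 0.05. Over all genes tested 16.6% rose and 11.1% fell, so the share of this list that rose was near that of all genes and the share that fell below it. IRF7, an interferon-inducible regulatory factor, averaged 21.9 ± 1.18 RPKM in DZNep and 5.68 ± 0.252 RPKM in DMSO (SD, n = 3 each; log2 change 1.78, limma adjusted p = 1.52e-06). IRF3, the constitutive factor, averaged 31.8 ± 0.0166 RPKM in DZNep and 26.1 ± 0.777 RPKM in DMSO (0.27, limma adjusted p = 0.00433). The change of IRF7 was the largest of the 22. NFKB1 fell by 0.16 (limma adjusted p = 0.0445), a call lost without any library but DMSO 1 (0.0752 to 0.130). The kinases that activate both factors gave 20.9 RPKM in DZNep and 19.9 in DMSO for TBK1 (adjusted p = 0.323), and 17.9 and 17.6 RPKM for IKBKE (adjusted p = 0.801). Without DZNep 2, DMSO 2 or DMSO 3, 2 genes of this list rose and 0 fell, and without DZNep 3 it was 3 and 0.

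Regulators of the RIG-I-like receptors had 4 of 21 up and 1 down, with a median of -0.01 beside 0.01 for all genes. The share up was again near the 16.6% of all genes, and the share down below the 11.1%. ZC3HAV1, an antiviral protein that binds CpG-rich RNA, averaged 17.8 ± 1.02 RPKM in DZNep and 13.9 ± 0.396 RPKM in DMSO (log2 change 0.33, limma adjusted p = 0.00462). TRIM14, a mitochondrial partner of MAVS, rose by 0.32 (limma adjusted p = 0.0102), and CYLD and RNF135 were the others that rose. PCBP2, which promotes the degradation of MAVS, fell by 0.23 (limma adjusted p = 0.0150), a call lost without DZNep 2 (0.0509) or DMSO 2 (0.0761). Without DMSO 2 the counts were 2 up and 0 down, and without DZNep 2 they were 3 and 0. In the PKR arm 3 of 18 rose and 1 fell, with a median of 0.09, which likewise put the rises near the share of all genes and the falls below it. EIF2B2, a subunit of the exchange factor that phosphorylated eIF2 blocks, averaged 46.9 ± 1.47 RPKM in DZNep and 33.0 ± 1.66 RPKM in DMSO (0.50, limma adjusted p = 7.26e-04), and EIF2AK1, the eIF2 kinase that responds to haem shortage, rose by 0.35 (limma adjusted p = 0.00188). ATF3, a stress-induced transcription factor, averaged 6.95 ± 0.771 RPKM in DZNep and 12.8 ± 1.66 RPKM in DMSO (-0.80, limma adjusted p = 0.00155).

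The other lists held fewer tested genes, and their counts stand beside 16.6% of all genes that rose and 11.1% that fell. Of 9 tested genes of the TLR family and its partners, the co-receptor CD14 (log2 change 0.44, limma adjusted p = 0.00157) and the adaptor MYD88 (0.19, limma adjusted p = 0.0190) rose and 0 fell, but 3 rose and 3 fell after quantile normalization and 2 rose and 2 fell with trimmed mean scaling. The call of MYD88 was lost without DZNep 2 (0.0669), DMSO 2 (0.0531) or DMSO 3 (0.0519). In the ADAR family and other double-stranded RNA binding proteins, 1 of 16 rose and 1 fell. These were ADAT2, a tRNA deaminase subunit (0.18, limma adjusted p = 0.0464), and STAU2, a double-stranded RNA binding protein (-0.31, limma adjusted p = 0.0249). ADAT2 passed only while every library but DZNep 1 was kept, with 0.0536 to 0.155 otherwise, and STAU2 was lost without DZNep 2 (0.0878), DMSO 2 (0.0970) or DMSO 3 (0.0649). ADARB1, the second adenosine deaminase of the family, averaged 1.14 RPKM in DZNep and 0.905 in DMSO (adjusted p = 0.104). Downstream of ZBP1, the kinase RIPK3 averaged 13.2 RPKM in DZNep and 12.5 in DMSO (adjusted p = 0.363) and MLKL, which carries out necroptosis, 16.8 and 18.2 RPKM (adjusted p = 0.224). The caspase CASP6 alone rose of 9 tested (0.19, limma adjusted p = 0.0194), and it did not pass without DZNep 2 (0.0642), DMSO 2 (0.0926) or DMSO 3 (0.0521).

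The list headed by the oligoadenylate synthetases, enzymes that detect the same ligand, had 6 of 7 tested genes up and a median of 0.96. OASL2 averaged 9.52 ± 0.598 RPKM in DZNep and 1.19 ± 0.111 RPKM in DMSO, and OAS1G averaged 11.2 ± 0.821 RPKM in DZNep and 2.05 ± 0.157 RPKM in DMSO (SD, n = 3 each). Reads of near-identical OAS1 genes cannot be told apart here. Of the 7 genes of the OAS list, 2 rose with Tamoxifen, where 0.692% of all genes tested rose. These were OAS1A, by 0.94 (limma adjusted p = 0.0305), and OAS1B, by 0.60 (limma adjusted p = 0.0481). Of the signalling genes 2 of 22 rose, IRF7, at 10.1 ± 0.140 RPKM in Tamoxifen and 5.56 ± 0.417 RPKM in EtOH (SD, n = 2 each; 0.76, limma adjusted p = 0.0263), and IKBKE (0.34, limma adjusted p = 0.0486). CD14 rose by 0.50 (limma adjusted p = 0.0305), and the regulators, the PKR arm, the ADAR family and the ZBP1 arm had 0 called by limma. At an unadjusted p under 0.05 these lists had 4 of 21, 3 of 18, 2 of 16 and 1 of 9 genes, each a smaller share than the 25.5% of all genes. Each of these 5 calls was lost without 1 or both Tamoxifen libraries, the adjusted p without Tamoxifen 2 being 0.116 for OAS1A, 0.295 for OAS1B, 0.129 for IRF7, 0.368 for IKBKE and 0.230 for CD14, and without Tamoxifen 1 it was 0.167 for OAS1B, 0.0954 for IRF7, 0.234 for IKBKE and 0.132 for CD14. Without Tamoxifen 1 or 2 that group is a lone library, assumed to vary as the EtOH pair does, and only 50 and 37 genes passed in all. The changes themselves moved little, to 0.77 and 0.74 for IRF7, 0.36 and 0.32 for IKBKE, 0.54 and 0.47 for CD14, 1.05 and 0.82 for OAS1A and 0.64 and 0.56 for OAS1B. IKBKE was also lost without EtOH 1 (0.0692). 

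By the test of the difference of effects, 10.7% of all genes tested had a larger change with DZNep than with Tamoxifen. In the OAS list 4 of 7 genes did, led by OAS1G with 1.31 (limma adjusted p = 2.32e-04) and OASL2 with 1.40 (limma adjusted p = 3.10e-04). IRF7 differed by 1.02 (limma adjusted p = 1.21e-04), whereas IKBKE differed by -0.32 (limma adjusted p = 0.0150) and NFKB1 by -0.28 (limma adjusted p = 0.0246). In the PKR arm, EIF2B2 differed by 0.52 (limma adjusted p = 0.00172) and EIF2AK1 by 0.37 (limma adjusted p = 0.00550). ATF3 moved the other way, by -1.82 (limma adjusted p = 4.37e-04), as did PPP1R15A, a phosphatase subunit that reverses eIF2α phosphorylation (-0.39, limma adjusted p = 0.0276). The ATF3 difference combines -0.80 with DZNep and 1.03 with Tamoxifen, the latter not passing (limma adjusted p = 0.0526). ATF3 averaged 15.6 ± 3.72 RPKM in Tamoxifen and 7.09 ± 0.907 in EtOH (SD, n = 2 each). PPP1R15A changed by -0.15 with DZNep and 0.24 with Tamoxifen, neither passing. CASP6 differed by 0.37 (limma adjusted p = 0.00516), IFNE by -0.84 (limma adjusted p = 0.00485) and ZFR, a double-stranded RNA binding protein, by 0.33 (limma adjusted p = 0.0226). For IFNE this test too was conditional on a difference, since in the chemical experiment it passed the filter only through the DMSO libraries. CYLD (0.26), TIRAP (0.26), CNPY3 (-0.30) and DGCR8 (-0.22) had limma adjusted p between 0.0400 and 0.0452, and each of these calls was lost on leaving out any of at least 8 of the 10 libraries. IKBKE was lost without Tamoxifen 2 (0.0732) and PPP1R15A without EtOH 2 (0.0827) or Tamoxifen 2 (0.117). NFKB1 was lost without DMSO 2 (0.0566), EtOH 1 (0.0867), Tamoxifen 1 (0.0595) or Tamoxifen 2 (0.109), and ZFR without DMSO 2 (0.0507), EtOH 1 (0.0841), Tamoxifen 1 (0.0800) or Tamoxifen 2 (0.0692).

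**Figure D4:**
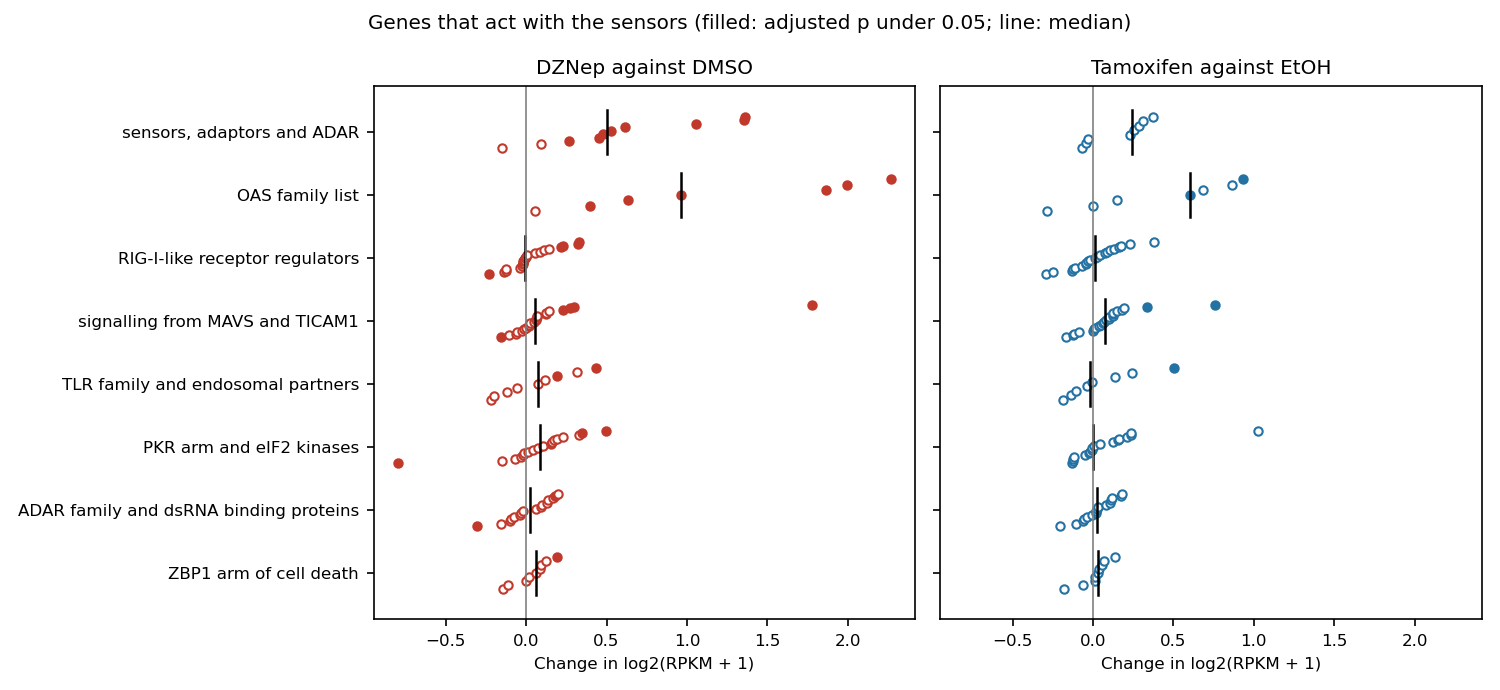
Change on the log2(RPKM + 1) scale of each tested gene of the sensor group and of 7 lists of partners, DZNep against DMSO on the left and Tamoxifen against EtOH on the right, with the median as a line and filled points for genes that passed limma over all genes. Medians lie at 0.50 for the sensor group and 0.96 for the OAS list with DZNep, and near 0 for the lists of regulators, signalling genes and cofactors.

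The genes with profiles closest to the sensors' were found by the root mean square difference over all 10 libraries, taken on log2 values less the control mean of the same table. TRIM34A (0.0611) and PARP14 (0.0729) lay closest to IFIH1, where the median of 10986 genes was 0.597. UROS (0.0543) and CTGF (0.0556) lay closest to DDX58, PDXK (0.0476) and PLTP (0.0495) to ADAR, DPP7 (0.0463) and ZCWPW1 (0.0530) to EIF2AK2, and BARX2 (0.0511) and H2-Q6 (0.0576) to TRIM25. The measure matches size as well as direction, and says nothing of shared control.

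Several sensors are also expressed by leukocytes and stromal cells, and in bulk samples more RNA per cell and more cells of a type cannot be told apart. The summed level of 20 leukocyte markers was 65.7 to 68.0 RPKM in DZNep and 45.2 to 51.9 in DMSO, and 64.4 to 68.9 RPKM in Tamoxifen and 49.0 to 54.0 in EtOH. It was carried by CD14, CD68 and S100A8, the 3 markers at 1 RPKM or more in each library, while the pan-leukocyte gene PTPRC reached at most 0.00494 RPKM and was listed at 0 in all control libraries. Fibroblast and smooth muscle markers, 14 in number, summed to 9.94 to 10.7 RPKM in DZNep and 4.96 to 6.28 in DMSO, and to 4.95 to 6.17 RPKM in Tamoxifen and 5.41 to 5.78 in EtOH. The higher DZNep sum was carried mainly by DCN (mean 6.11 RPKM against 2.77 in DMSO) and ACTA2 (2.62 against 0.692). FBLN1 went the other way (0.914 against 1.36), as did COL1A1, PDGFRA, PDGFRB, VIM and CNN1 at lower levels. COL3A1 and DES were listed at 0 in every library. The markers of the epithelium itself also differed between groups. The summed level of 10 basal genes was 7024 to 7272 RPKM in DZNep and 5258 to 5517 in DMSO, and 4371 to 4485 RPKM in Tamoxifen and 5434 to 5823 in EtOH. That of 14 luminal genes was 5551 to 5784 RPKM in DZNep and 5267 to 5439 in DMSO, and 4607 to 4876 RPKM in Tamoxifen and 5235 to 5642 in EtOH. Both sums thus lay higher in every DZNep library and lower in every Tamoxifen library than in the controls. The part of these markers in the changes of the sensors was not tested.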

How the data were processed

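RNA was sequenced from 10 organoid libraries. Per the labels' protocols, TRIzol extraction was followed by a TruSeq stranded mRNA kit. The tools named per the submitters' processing notes are Cufflinks, STAR and bcl2fastq 2.18, with build mm9; other versions, counting strand and handling of multiply aligned reads are not given in the sources used. Values deposited by the authors were log2 values of RPKM, in 1 table per experiment, and their floor of 0 was read as log2(RPKM + 1). Depth is unknown, so counting intervals are not given. The genetic table had 2 rows without values and 27 symbols turned into dates, which were left out.

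Deposited values were turned back into RPKM by undoing the logarithm and subtracting 1. The filter kept genes whose average over a table reached 1 RPKM. The main test was limma 3.58.1 (R 4.3.3), two-sided, with variances shrunken along their trend with expression, separately per experiment (residual degrees of freedom 4 in the chemical and 2 in the genetic one). Whether both tables were normalized together is not stated, so levels were tested only within a table. The difference of effects was tested in 1 fit of 4 group means over 10 libraries (6 degrees of freedom). The Benjamini-Hochberg adjustment covered all genes tested, with a threshold of 0.05. Alternatives comprised leaving out each library, a replicate block, a joint fit, robust or untrended variances, 2 scalings (quantile normalization and a trimmed mean), other filters (none, 5 RPKM) and 0.1 as the pseudocount. Promoter windows came from RefSeq by symbol, with no link to the mm9 values beyond the gene's name. Partners named are the up to 2 rises and 2 falls of smallest p per list and comparison, and others were named after their values were seen. The 2 genes of nearest profile were taken for each of the 5 members of largest change that were tested in both tables. A gene of the partner lists and a further motif are not reported here. Members and lists were chosen with earlier results of these data known. Figures were drawn with matplotlib 3.10.9.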

Additional observations from a re-analysis of the deposited data

Results flagged for a closer look

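The effect of DZNep differed from that of Tamoxifen, by a test of the difference itself, for 3 of the 8 genes tested. Over all 10994 genes tested 19.9% differed in either direction, and 10.7% had a larger change with DZNep. The differences in log2 change were 0.77 for IFIH1, 0.36 for DDX58 and 0.34 for TLR3, each larger with DZNep. With no filter on low values IFIH1 kept its call, while DDX58 (limma adjusted p = 0.0701) and TLR3 (limma adjusted p = 0.0767) did not pass. IFIH1 also kept it whichever library was left out, while DDX58 and TLR3 both lost theirs without DMSO 2, among others. The agents, their vehicles and the number of libraries all differ between the experiments and cannot be told apart here.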

How the results depend on the processing

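The number of genes called with DZNep was 8 and stayed between 8 and 9 whichever library was left out. It was 5 with a filter of 5 RPKM, which IFIH1, DHX58 and ZBP1 do not reach, 7 with no filter, where TLR3 was lost, and 9 after quantile normalization, with trimmed mean scaling and in the joint fit, where MAVS was added. With Tamoxifen 0 were called, but 1 with robust variances, 2 in the joint fit and 0 to 1 with a library left out. For the difference of effects the count was 3, and 1 to 3 with a library left out; with no filter it was again 3, but DDX58 and TLR3 were lost and DHX58 and ZBP1 gained. The change of TICAM1 with Tamoxifen, -0.04 and not past the threshold, was 0.0546 without EtOH 1 and 0.01 without Tamoxifen 2 and ranged from -0.137 to 0.0546 with a library left out, and that of EZH2, 0.08, ranged from -0.0578 (without EtOH 1) to 0.214. Promoter matches were found in 3 genes with the longer core, 2 on the sense strand alone and 6 with the looser core.

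Whether replicate numbers shared between groups mark pairs could not be decided. In the chemical experiment, deviations of same-numbered libraries correlated by -0.0675 to 0.0591 over 11143 genes. Those of differently numbered libraries correlated by -0.146 to 0.0945. In the genetic experiment the values were 0.0400 and -0.0400, which 2 libraries per group make equal and opposite whatever the pairing. With a replicate block 8 genes were called with DZNep, 2 with Tamoxifen (ADAR and TRIM25) and 2 for the difference, which left out DDX58. Over all genes the block gave 1610 calls with DZNep in place of 3088, 878 in place of 230 with Tamoxifen and 1226 in place of 2190 for the difference, and with a library left out totals ranged from 1522 (without DMSO 2) to 3359 with DZNep, from 37 (without Tamoxifen 2) to 977 with Tamoxifen and from 924 (without Tamoxifen 2) to 2326 for the difference. Other alternatives gave Tamoxifen 163 (no trend) to 1028 (joint fit). With no filter 1757, 97 and 1402 genes were called. Quantile normalization split the DZNep calls into 1635 higher and 1637 lower, in place of 1850 and 1238.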
